A study of Mus musculus with 16 samples.

Results

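The genes described here are components of the epidermal growth factor (EGF) receptor, Ras and mitogen-activated protein kinase (MAPK) cascade, chosen by symbol: 33 genes, of which 28 were measured among 18193 genes on the array. Areg, Hras, Mapk3, Rps6ka1 and Rps6ka2 were not analysed here. Their RNA was measured on 16 Affymetrix mouse arrays of liver from male C3H/HeJ mice. All mice were described as having received 1 injection of the liver carcinogen N-nitrosodiethylamine (DEN), at 10 or 90 µg per g body weight and at 2 or 6 weeks of age, followed after a 2-week interval by phenobarbital, a liver tumour promoter, or by no phenobarbital. Phenobarbital was given in the group of 7 tumours with mutated Ctnnb1 and their 3 non-tumour controls. No phenobarbital was given in the group of 3 tumours with mutated Ha-ras and their 3 non-tumour controls, which are called untreated controls. Ctnnb1 encodes β-catenin, and Ha-ras is the older name of Hras. The sample labels give phenobarbital for 27 weeks, while other label texts give a 0.05% dose for 28 days in drinking water or 28 to 36 weeks in the diet, and which DEN dose and age each sample had is not stated. Nothing in the labels says that the samples came from separate animals, so the p-values measure the spread between these samples, which may be partly technical. In bulk tissue such as this, fewer cells of a type and less RNA per cell cannot be told apart.

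The cascade carries growth signals from the cell surface to the nucleus. A ligand binds a receptor tyrosine kinase, adaptors bring an exchange factor to the membrane, the exchange factor loads Ras with GTP, and Ras then starts the RAF, MEK and ERK kinase relay, which GTPase-activating proteins oppose by switching Ras off. In liver, EGF receptor signalling is known for its part in regeneration, and activating Ras mutations are frequent in chemically induced mouse liver tumours.

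The array medians lay between 5.03 and 5.10 on the log2 scale. Phenobarbital control 6 stood apart in the gap between 3′ and 5′ Gapdh control probe sets, which was 2.70 there and between -0.15 and 0.32 on the other 15 arrays. The limma array weight, which is lower for an array that departs more from its group, was also lowest there. It was 0.22 for phenobarbital control 6 and between 0.50 and 1.67 on the other 15 arrays. Hepatocyte markers were high on every array, with 7 of 8 measured and a mean level between 13.73 and 14.18. Of the 28 members, 21 lay at or above the median level of all genes, 6.21, and 7 lay below it: Erbb2, Erbb4, Ereg, Egf, Ksr1, Nf1 and Rasal2. All levels and differences below are log2 values, so a difference of 1 is a doubling, and a gene passed when its limma p, adjusted by Benjamini-Hochberg over all 18193 genes, was under 0.05.

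In both kinds of tumour, RNA of the receptor Egfr and the exchange factor Sos1 fell, and RNA of the ligands Tgfa and Btc and of the small GTPase Rras rose. The Sos1 calls were lost with the mean of all its probe sets. The other Tgfa probe sets did not pass. The Rras call in Ha-ras tumours was lost in most runs that left out 1 array. In a minority of such runs the Tgfa and Btc calls in Ctnnb1 tumours and the Egfr call in Ha-ras tumours were lost. Rps6ka3, a kinase activated by ERK, fell in Ctnnb1 tumours and rose in Ha-ras tumours. In Ctnnb1 tumours against phenobarbital controls, 7 of 28 members passed, of which 3 rose and 4 fell, beside 12.0% of all genes (6.07% rose and 5.97% fell). In Ha-ras tumours against untreated controls, 7 of 28 passed, of which 5 rose and 2 fell, beside 13.5% of all genes (7.21% rose and 6.33% fell). The lists shared 6 members, 85.7% of each, of which 5 moved in the same direction and 1 in opposite directions. Over all genes 711 were shared, 32.4% of those called in Ctnnb1 tumours and 28.9% of those called in Ha-ras tumours, and 83 of them moved in opposite directions. Tumours and controls did not overlap for 6 members in the Ctnnb1 comparison, 2 higher and 4 lower, beside 12.6% of all genes (5.96% higher and 6.64% lower). They did not overlap for 13 members in the Ha-ras comparison, 9 higher and 4 lower, beside 34.8% of all genes (16.3% higher and 18.5% lower). The median change of the members was -0.02 in Ctnnb1 tumours and 0.06 in Ha-ras tumours, against -0.03 and -0.04 over all genes.

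**Figure D1:**
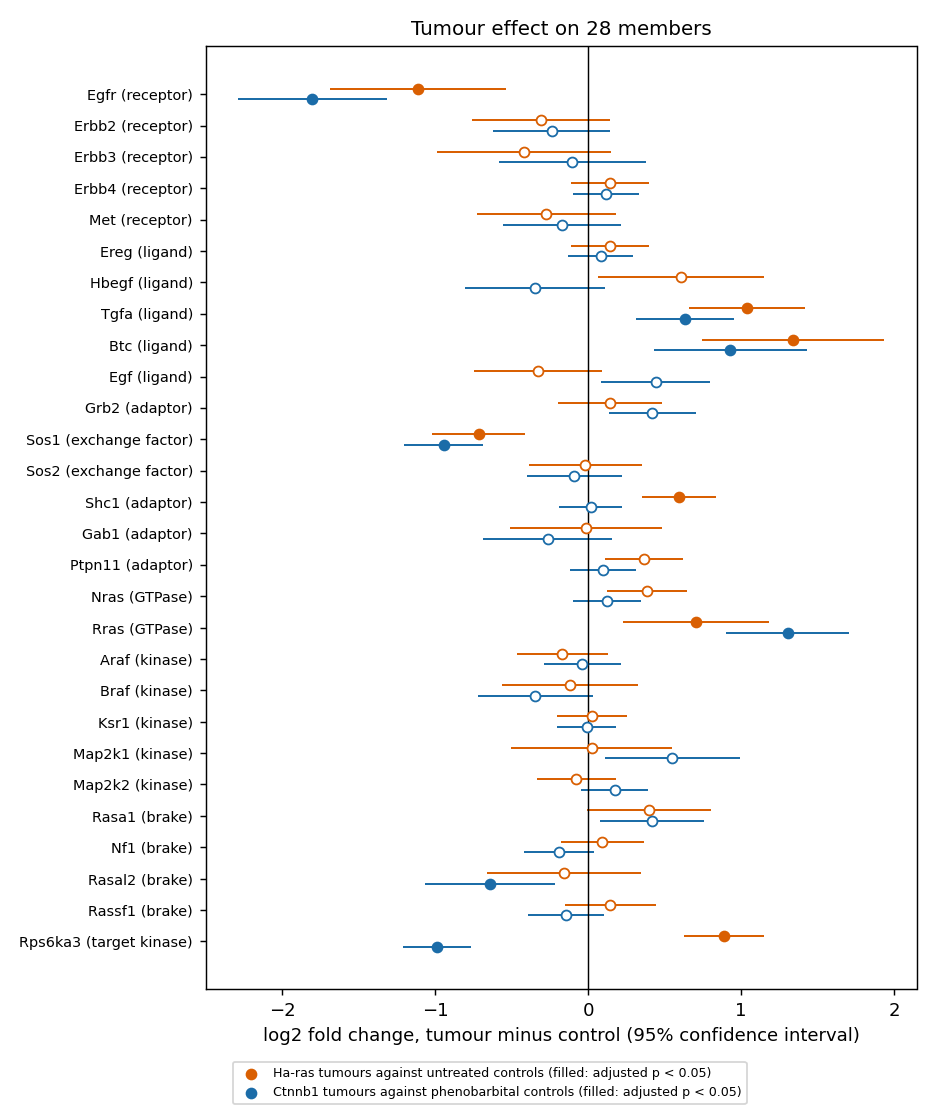
Log2 fold change of each of the 28 measured members (tumour minus its own control), with 95% confidence intervals from limma; blue is Ctnnb1 tumours (n = 7) against phenobarbital controls (n = 3), orange is Ha-ras tumours (n = 3) against untreated controls (n = 3), and filled points passed an adjusted p of 0.05. Egfr and Sos1 lie left of 0 in both comparisons, Tgfa, Btc and Rras lie right of 0 in both, and Rps6ka3 lies at -0.99 in one and 0.89 in the other.

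The promoters of Egfr, Tgfa and Btc are shown because a receptor and 2 of its ligands moved in opposite directions in both kinds of tumour. Each sequence is the 250 bases before the gene's start in RefSeq, build GRCm38.p6, read 5′ to 3′ on the gene's strand, and capitals mark a motif match.
Egfr: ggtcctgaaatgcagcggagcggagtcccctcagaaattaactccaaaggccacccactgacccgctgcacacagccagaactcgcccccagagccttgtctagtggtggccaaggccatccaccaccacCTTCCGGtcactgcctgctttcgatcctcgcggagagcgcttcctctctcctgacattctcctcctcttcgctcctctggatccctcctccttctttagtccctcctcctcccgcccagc
Tgfa: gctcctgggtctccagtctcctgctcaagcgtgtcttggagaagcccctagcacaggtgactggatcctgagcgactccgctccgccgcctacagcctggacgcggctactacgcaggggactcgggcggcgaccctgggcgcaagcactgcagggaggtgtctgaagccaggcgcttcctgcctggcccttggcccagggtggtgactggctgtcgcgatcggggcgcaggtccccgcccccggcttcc
Btc: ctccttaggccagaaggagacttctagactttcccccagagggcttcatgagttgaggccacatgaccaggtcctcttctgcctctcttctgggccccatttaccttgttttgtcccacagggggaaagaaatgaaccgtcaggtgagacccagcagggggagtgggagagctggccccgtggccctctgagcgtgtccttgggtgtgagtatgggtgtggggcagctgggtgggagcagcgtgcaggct
They lie at chr11:16751953-16752202 on the plus strand for Egfr, chr6:86194972-86195221 on the plus strand for Tgfa and chr5:91402995-91403244 on the minus strand for Btc. The Tgfa promoter held 69.2% G and C and 19 CpG dinucleotides, the Egfr promoter 60.8% and 11, and the Btc promoter 59.6% and 4, against medians of 52.4% and 6 over 32851 mouse promoters. Each was searched on both strands for AP-1 (TGANTCA, held by 6.75% of all promoters), TCF/LEF (ATCAAAG, 3.21%), ETS (CCGGAAG, 6.91%) and the CArG box (1.47%). The 1 match was an ETS motif in the Egfr promoter, CTTCCGG, from 120 to 114 bases before the start. A match is a description of the letters, and binding was not measured.

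Egfr, the receptor for EGF, TGF-α, betacellulin and related ligands, fell in both kinds of tumour. Its level in Ctnnb1 tumours ran from 9.42 to 10.37 with a median of 9.96, and it was 12.33, 11.27 and 11.44 in the phenobarbital controls. It was 10.56, 10.13 and 10.58 in the Ha-ras tumours and 11.28, 11.92 and 11.41 in the untreated controls. Every tumour lay below every control. The change was -1.80 ± 0.23 (SE; 3.49-fold lower, limma adjusted p = 0.000202) in Ctnnb1 tumours and -1.11 ± 0.27 (2.16-fold lower, adjusted p = 0.0114) in Ha-ras tumours. With untreated control 2 left out, the Ha-ras difference was -0.92 and no longer passed (adjusted p = 0.0607), and with Ha-ras tumour 2 left out it was -0.97 (adjusted p = 0.0581). The difference between the 2 changes was -0.69 ± 0.36 with a 95% interval from -1.44 to 0.06, and did not pass (limma adjusted p = 0.323).

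The other measured receptors did not pass in either comparison. Erbb3, a receptor with little kinase activity of its own that signals through its partners, differed by -0.10 (95% interval -0.58 to 0.38) in Ctnnb1 tumours and -0.42 in Ha-ras tumours (limma adjusted p = 0.36), where the groups did not overlap. Met, the receptor for hepatocyte growth factor, differed by -0.17 (-0.56 to 0.22) and -0.27 (-0.73 to 0.19). Erbb2, the family member without a known ligand, lay between 4.44 and 5.48 on all arrays, and its difference in Ctnnb1 tumours, -0.24 (limma adjusted p = 0.432), was -0.53 and passed without phenobarbital control 5 (adjusted p = 0.0359). Erbb4, a receptor for neuregulins and betacellulin, lay between 2.26 and 2.89.

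Tgfa, which encodes transforming growth factor α, rose in both kinds of tumour. Its level was 8.90 to 9.61 in Ctnnb1 tumours, with a median of 9.44, against 8.65, 8.59 and 9.03 in phenobarbital controls. It was 9.05, 9.29 and 9.13 in Ha-ras tumours against 7.81, 8.26 and 8.29 in untreated controls. The Ha-ras groups did not overlap, while Ctnnb1 tumour 7, at 8.90, lay below phenobarbital control 6. The rise was 0.63 ± 0.15 (1.55-fold, limma adjusted p = 0.0133) in Ctnnb1 tumours and 1.04 ± 0.18 (2.05-fold, adjusted p = 0.000923) in Ha-ras tumours. The Ctnnb1 difference no longer passed with phenobarbital control 4 left out (0.58, adjusted p = 0.0542) or with control 5 left out (0.55, adjusted p = 0.0558).

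Btc, which encodes betacellulin, a ligand of EGFR and ERBB4, also rose in both. Its level was 6.38 to 7.84 in Ctnnb1 tumours, with a median of 6.82, and 6.18, 5.58 and 6.25 in phenobarbital controls. It was 7.13, 7.21 and 7.41 in Ha-ras tumours and 6.27, 5.68 and 5.78 in untreated controls. No tumour overlapped its controls. The rise was 0.93 ± 0.24 (1.91-fold, limma adjusted p = 0.0185) and 1.34 ± 0.28 (2.54-fold, adjusted p = 0.0039). In Ctnnb1 tumours it no longer passed with phenobarbital control 5 left out (0.72, adjusted p = 0.0873), or with the Gapdh gap as a covariate (1.04, adjusted p = 0.0701).

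The remaining ligands did not pass against their controls. Hbegf, the heparin-binding ligand, was 8.29, 8.22 and 8.66 in Ha-ras tumours and 7.76, 7.47 and 8.11 in untreated controls, groups that did not overlap, with a difference of 0.61 ± 0.26 (limma adjusted p = 0.138). In Ctnnb1 tumours it ranged from 7.04 to 8.23 against 7.48 to 8.15 in their controls, a difference of -0.35 ± 0.22 (adjusted p = 0.329). Egf, the ligand that names the family, differed by 0.44 ± 0.17 in Ctnnb1 tumours (adjusted p = 0.0973, and 0.0318 without phenobarbital control 5) and by -0.33 ± 0.20 in Ha-ras tumours. Ereg, which encodes epiregulin, lay between 2.62 and 3.13 on all arrays.

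**Figure D2:**
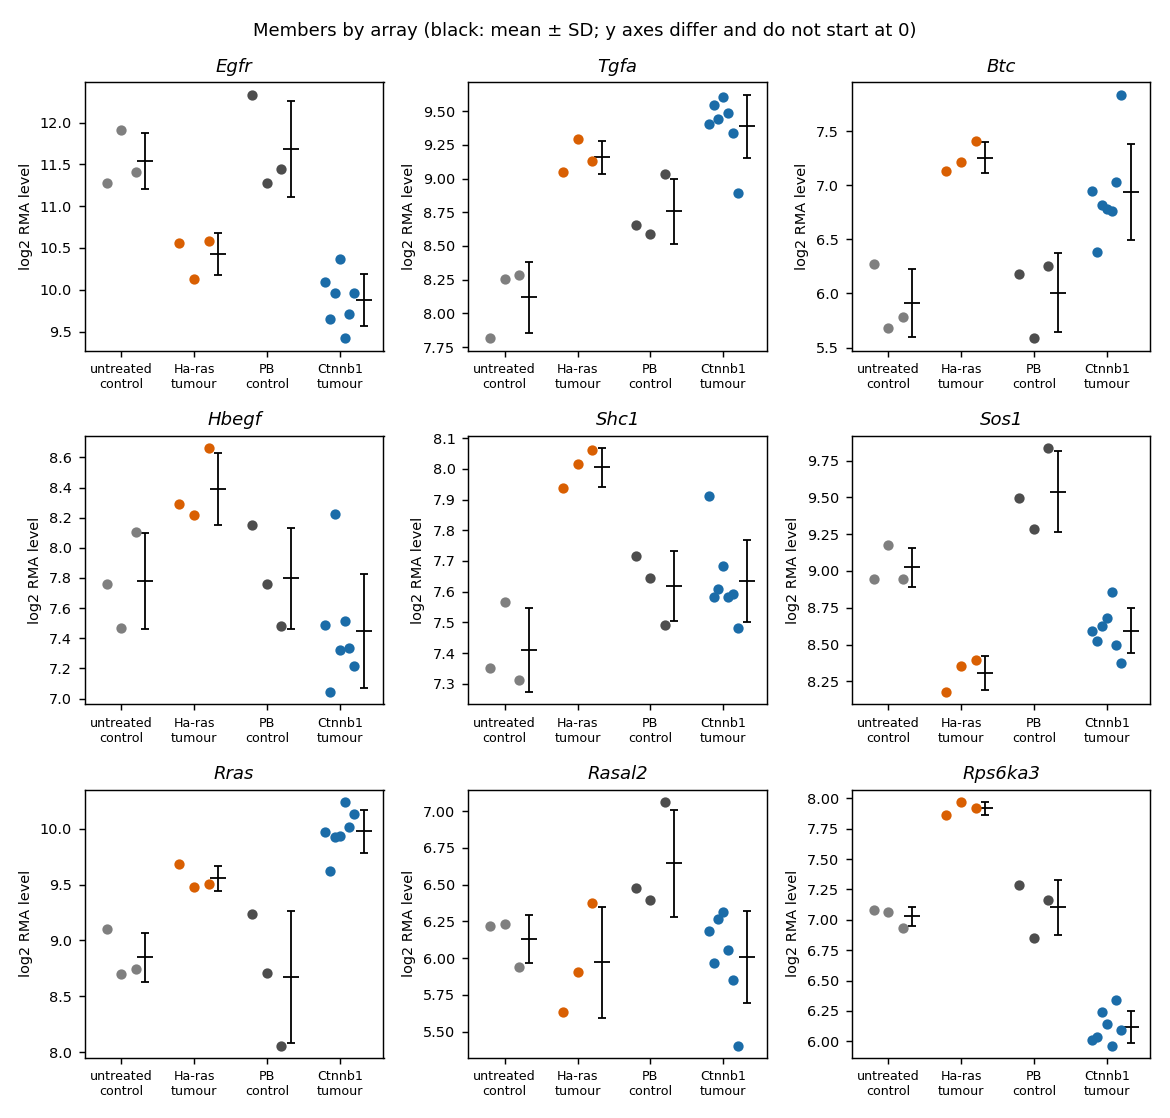
Log2 level of 9 members on each of the 16 arrays by group (points), with group mean and SD in black (PB is phenobarbital; n = 7 Ctnnb1 tumours and 3 in each other group). Egfr and Sos1 are lower, and Btc and Rras higher, in both tumour groups than in their controls, and Rps6ka3 runs from 5.96 to 6.34 in Ctnnb1 tumours and from 7.86 to 7.97 in Ha-ras tumours.

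Among the adaptors and exchange factors, Sos1 fell in both kinds of tumour and Shc1 rose in Ha-ras tumours. Sos1, which loads Ras with GTP, was 8.38 to 8.86 in Ctnnb1 tumours with a median of 8.59, against 9.50, 9.28 and 9.83 in their controls. It was 8.18, 8.35 and 8.39 in Ha-ras tumours against 8.95, 9.18 and 8.95 in untreated controls. Neither tumour group overlapped its controls. The change was -0.94 ± 0.12 (1.92-fold lower, limma adjusted p = 0.000214) and -0.72 ± 0.14 (1.64-fold lower, adjusted p = 0.00303). The call rests on 1 of 5 probe sets: with the mean of all probe sets it was -0.07 (adjusted p = 0.553) and -0.10 (adjusted p = 0.452), and 1 dim probe set rose in Ctnnb1 tumours (0.42, adjusted p = 0.0212 over all probe sets). Its relative Sos2 differed by -0.09 and -0.02 (adjusted p = 0.755 and 0.969).

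Shc1, an adaptor that couples receptors to GRB2 and SOS, was 7.94, 8.02 and 8.06 in Ha-ras tumours and 7.35, 7.56 and 7.31 in untreated controls, without overlap. The rise was 0.60 ± 0.12 (1.51-fold, limma adjusted p = 0.0022). In Ctnnb1 tumours it was 7.48 to 7.91 against 7.72, 7.65 and 7.49, a difference of 0.02 with a 95% interval from -0.19 to 0.22. On its other probe set the differences were 0.45 in Ha-ras and 0.42 in Ctnnb1 tumours, and neither passed (adjusted p = 0.0987 and 0.064 over all probe sets).

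The other adaptors lay close to the threshold or well short of it. Grb2, the adaptor that carries SOS proteins to receptors, differed by 0.42 ± 0.13 in Ctnnb1 tumours (limma adjusted p = 0.053) and by 0.14 ± 0.16 in Ha-ras tumours (adjusted p = 0.64). In Ctnnb1 tumours it passed under 4 alternatives (adjusted p from 0.0346 to 0.0494) but not under most. Ptpn11, which encodes the phosphatase SHP2, was 9.71, 9.85 and 9.98 in Ha-ras tumours and 9.46, 9.56 and 9.41 in untreated controls, without overlap, a difference of 0.37 ± 0.12 (adjusted p = 0.0538). It passed under 6 alternative settings, with adjusted p from 0.0152 to 0.0478, but not under most. The lowest came from leaving out arrays of other groups, with the difference unchanged. Gab1, a docking protein for PTPN11, differed by -0.26 ± 0.20 and -0.01 ± 0.23.

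Of the 2 measured Ras GTPases, Rras rose in both comparisons. Rras, an R-Ras family GTPase related to the classical Ras proteins, was 9.62 to 10.24 in Ctnnb1 tumours with a median of 9.97, against 9.24, 8.71 and 8.06 in phenobarbital controls. It was 9.69, 9.48 and 9.50 in Ha-ras tumours and 9.10, 8.70 and 8.75 in untreated controls. The groups did not overlap in either comparison. The rise was 1.31 ± 0.19 (2.47-fold, limma adjusted p = 0.000517) in Ctnnb1 tumours and still passed (adjusted p = 0.00213) without phenobarbital control 6, the lowest array. In Ha-ras tumours it was 0.71 ± 0.22 (1.63-fold, adjusted p = 0.0473), a call that was lost on leaving out any of the 6 arrays except untreated control 1, with adjusted p up to 0.147.

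Nras, a classical Ras GTPase, was 8.54, 8.57 and 8.54 in Ha-ras tumours and 8.09, 8.19 and 8.21 in untreated controls. These groups did not overlap, and the difference of 0.39 ± 0.12 did not pass (limma adjusted p = 0.0505). It passed under 6 alternative settings (adjusted p from 0.0145 to 0.0438) but not under most. In Ctnnb1 tumours the difference was 0.13 with a 95% interval from -0.10 to 0.35, although 1 other Nras probe set rose there (0.55, adjusted p = 0.024 over all probe sets).

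None of the 5 measured cascade kinases and scaffolds upstream of ERK passed against its controls on the probe set kept. Braf and Araf encode RAF kinases. Braf differed by -0.34 (95% interval -0.72 to 0.03) in Ctnnb1 tumours and by -0.12 (-0.56 to 0.33) in Ha-ras tumours, and Araf by -0.04 and -0.17. Of the other Araf probe sets, 1 rose in Ctnnb1 tumours (1.04, limma adjusted p = 0.0268 over all probe sets). Ksr1, a scaffold that holds RAF, MEK and ERK together, differed by -0.01 and 0.03. Map2k2, which encodes the kinase MEK2, differed by 0.17 (-0.05 to 0.39) and -0.08 (-0.34 to 0.18). Map2k1, which encodes MEK1, was 9.63, 9.71 and 8.42 in phenobarbital controls and 9.40 to 9.98 in Ctnnb1 tumours. Its difference was 0.55 ± 0.21 (limma adjusted p = 0.0976), and it was 0.13 (adjusted p = 0.614) without phenobarbital control 6 but 0.78, which passed (adjusted p = 0.0338), without phenobarbital control 5.

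Of the brakes on Ras, Rasal2 passed in 1 comparison. Rasal2, a GTPase-activating protein, was 5.41 to 6.32 in Ctnnb1 tumours with a median of 6.05, against 6.48, 6.40 and 7.06 in phenobarbital controls, and the groups did not overlap. It fell by 0.64 ± 0.20 (1.56-fold lower, limma adjusted p = 0.0489), but the call was lost on leaving out 7 of the 10 arrays in turn, and was -0.43 (adjusted p = 0.271) without phenobarbital control 6 and -0.34 (adjusted p = 0.506) with the Gapdh gap as a covariate. In Ha-ras tumours it differed by -0.16 ± 0.24. Rasa1, the first described Ras GTPase-activating protein, differed by 0.42 ± 0.16 in Ctnnb1 tumours (adjusted p = 0.103), which was 0.12 without phenobarbital control 6 and 0.62, which passed (adjusted p = 0.0267), without control 5. In Ha-ras tumours Rasa1 differed by 0.40 ± 0.19 (adjusted p = 0.202). It passed there under 3 alternative settings (adjusted p from 0.0304 to 0.0359) but not under most. Nf1, which encodes neurofibromin, differed by -0.19 and 0.09, and the Ras-association gene Rassf1 by -0.14 and 0.14; neither gene passed.

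Rps6ka3, which encodes the ribosomal S6 kinase RSK2, moved in opposite directions in the 2 kinds of tumour. Its level was 5.96 to 6.34 in Ctnnb1 tumours with a median of 6.09, against 7.29, 6.85 and 7.17 in phenobarbital controls. It was 7.86, 7.97 and 7.92 in Ha-ras tumours and 7.08, 7.07 and 6.94 in untreated controls. All Ctnnb1 tumours lay below both control groups and all Ha-ras tumours above both. It fell by 0.99 ± 0.10 in Ctnnb1 tumours (1.98-fold, limma adjusted p = 6.00e-05) and rose by 0.89 ± 0.12 in Ha-ras tumours (1.85-fold, adjusted p = 0.000153). Another probe set rose in Ha-ras tumours (0.51, adjusted p = 0.023 over all probe sets) and differed by -0.20 in Ctnnb1 tumours (adjusted p = 0.301). The last probe set, with a mean level of 3.62, did not pass in either.

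**Figure D3:**
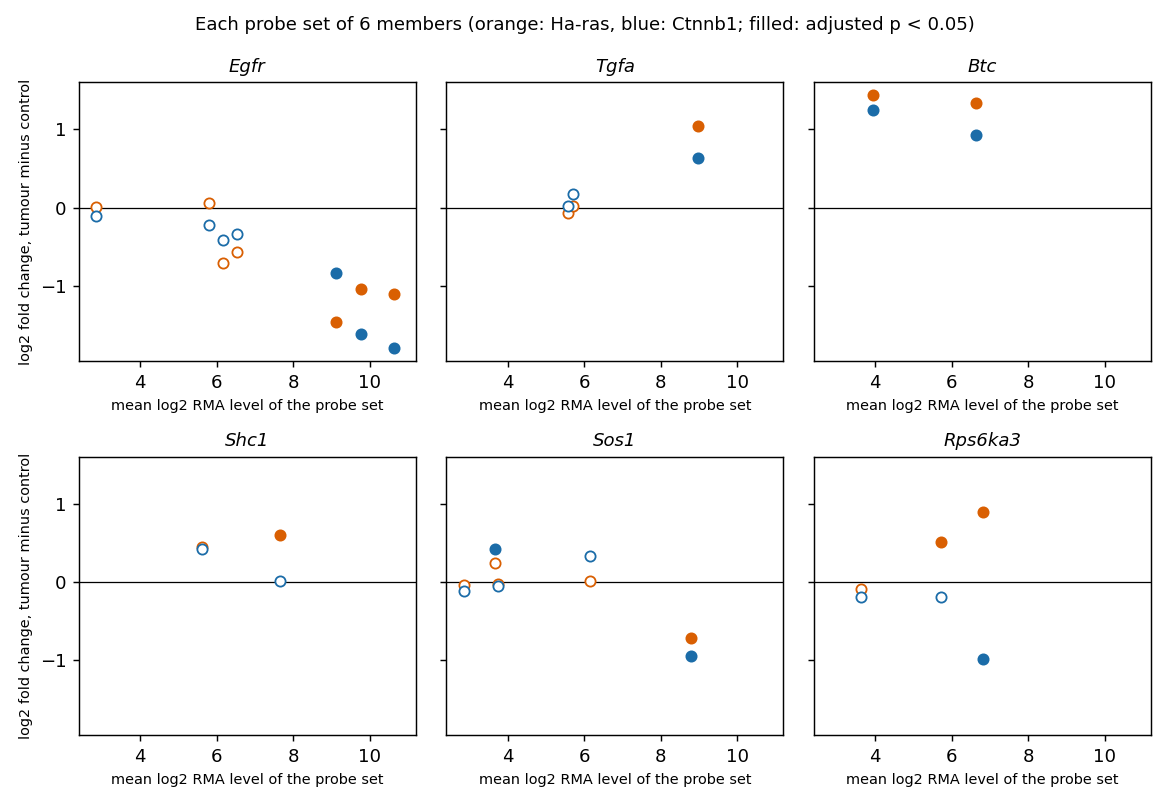
Log2 fold change of every probe set of 6 members (tumour minus its own control) against the probe set's mean log2 level over 16 arrays, for both tumour comparisons. The brightest Egfr probe sets, at mean levels of 9.13 to 10.63, lie below 0 in both comparisons, while the dimmer probe sets lie between -0.11 and 0.42 for Sos1 and between -0.07 and 0.18 for Tgfa; filled points passed.

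The members with several probe sets showed how far a call rests on the one kept. Egfr had 7 probe sets, and the 3 brightest fell in both kinds of tumour: the differences were -1.80 and -1.11 on the one kept, -1.62 and -1.04 on the next, and -0.83 and -1.47 on the dimmest of the 3, with Ctnnb1 tumours given first. The 4 dimmer Egfr probe sets did not pass. The second Btc probe set rose by 1.25 and 1.44 (limma adjusted p = 0.0025 and 0.0018 over all probe sets). The other 2 Tgfa probe sets, with mean levels of 5.57 and 5.70, did not pass, so the Tgfa calls rest on the one kept. With the mean of all probe sets of a gene the calls of Egfr, Tgfa and Rps6ka3 held with smaller values. That mean includes the probe set kept, so it is not separate support. Egfr was then -0.76 in Ctnnb1 and -0.69 in Ha-ras tumours, Tgfa 0.27 and 0.33, and Rps6ka3 -0.46 and 0.44.

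The difference between the tumour effects, computed as the Ctnnb1 change minus the Ha-ras change, passed for 2 of 28 members, beside 5.43% of all genes, and both were lower (3.29% of all genes were lower). For Rps6ka3 the difference was -1.88 ± 0.16 (limma adjusted p = 5.02e-06), and -0.90 (adjusted p = 0.000849) with the mean of all its probe sets. For Shc1 it was -0.58 ± 0.15 (adjusted p = 0.0335), a call lost when any 1 of 8 of the 16 arrays was left out: Ctnnb1 tumour 2, phenobarbital controls 4 and 5, untreated controls 1 and 3, and each Ha-ras tumour, with adjusted p from 0.0502 to 0.0936. On the other Shc1 probe set the difference was -0.03. Hbegf differed by -0.96 ± 0.33 and Egf by 0.77 ± 0.26, and neither passed (adjusted p = 0.12 and 0.106). The Egf difference was 0.96 and passed without phenobarbital control 5 (adjusted p = 0.037). Without Ctnnb1 tumour 3, the array with the highest Hbegf of its group, the Hbegf difference was -1.09 (adjusted p = 0.0233). Mutation and phenobarbital go together in these groups and cannot be told apart.

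Set directly against each other, the tumours differed in 5 of 28 members, beside 15.1% of all genes: Egf and Araf were higher in Ctnnb1 tumours (7.21% of all genes were higher), and Hbegf, Shc1 and Rps6ka3 were lower (7.9% were lower). Rps6ka3 was lower by 1.80 ± 0.10 on the log2 scale, 3.48-fold (limma adjusted p = 9.62e-09), and the difference was -0.77 (adjusted p = 1.44e-05) with the mean of all its probe sets. Hbegf was 1.92-fold lower (adjusted p = 0.00674), with Ctnnb1 tumour 3, at 8.23, inside the range of the Ha-ras tumours, and its other probe set did not pass (-0.64, adjusted p = 0.262 over all probe sets). Shc1 was 1.29-fold lower (adjusted p = 0.0158), Egf 1.46-fold higher (0.0369) and Araf 1.31-fold higher (0.0332). The Egf call was lost on leaving out 7 of 10 arrays in turn and the Araf call on 5 of 10, and the Shc1 call without Ha-ras tumour 2 or 3. These tumours also differed in phenobarbital, whose share in the difference cannot be told apart.

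Phenobarbital controls against untreated controls, which supply the baselines of the comparisons above, gave no member past the threshold by limma, beside 0.214% of all genes. At an unadjusted p under 0.05, 5 of 28 members passed, against 13.6% of all genes. The groups did not overlap for 7 members, beside 18.8% of all genes (9.4% higher and 9.44% lower): Tgfa, Sos1, Ptpn11, Nras, Araf and Rasal2 were higher and Met lower under phenobarbital. Tgfa differed by 0.64 ± 0.18 and Sos1 by 0.51 ± 0.14 (adjusted p = 0.14 for both). Egfr differed by 0.15 ± 0.27 (adjusted p = 0.856) and Rps6ka3 by 0.07 (adjusted p = 0.838).

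**Figure D4:**
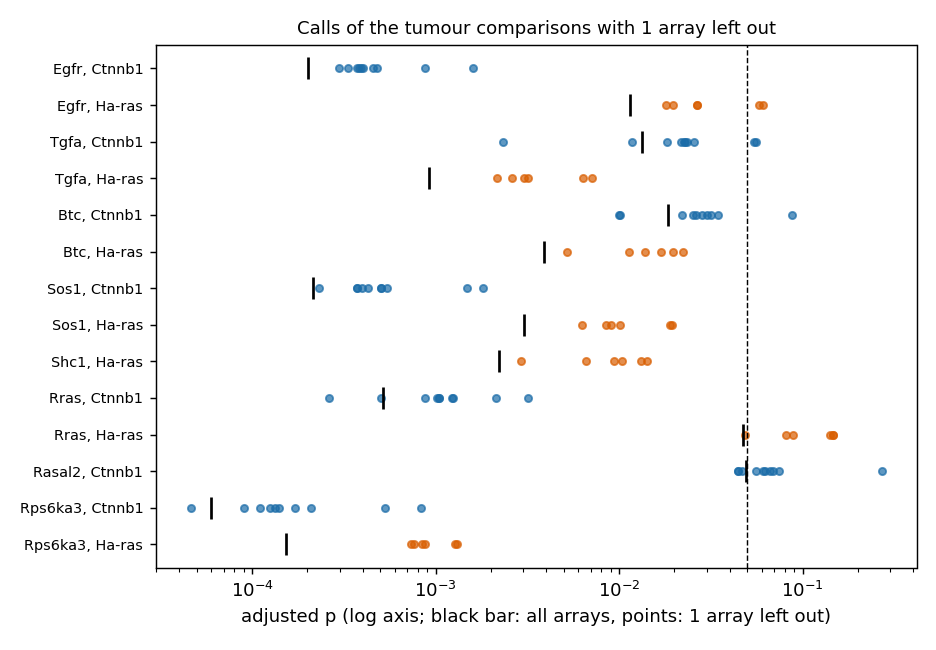
Adjusted p (log axis) of the 14 calls in the 2 tumour comparisons when all arrays are used (black bar) and with each array of the comparison left out in turn (points; blue Ctnnb1, orange Ha-ras); the dashed line is 0.05. Rps6ka3, Sos1, Shc1 and the Ctnnb1 calls of Egfr and Rras stay left of the line in every run, while the Ha-ras call of Rras and the Rasal2 call cross it in most.

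Beside the members, 91 other measured genes of the pathway in 4 lists gave 10 that rose and 12 that fell in Ctnnb1 tumours (24.2%), and 18 that rose and 4 that fell in Ha-ras tumours (24.2%). Among 21 other ligands, sheddases and receptors, 2 rose and 6 fell in Ctnnb1 tumours, with Fgfr2, a fibroblast growth factor receptor, at -2.30 ± 0.21 and Nrg1, which encodes the ERBB3 and ERBB4 ligand neuregulin, at 0.87 ± 0.20. In Ha-ras tumours 5 rose and 2 fell, with Nrg1 at 2.20 ± 0.24 and Rhbdf1, a regulator of ligand shedding, at 1.90 ± 0.25. Among 29 other Ras GTPases, exchange factors and GTPase activators, 7 rose and 3 fell in Ctnnb1 tumours, and 7 rose and 1 fell in Ha-ras tumours. Rasgrp2, an exchange factor, fell by 1.19 ± 0.22 in the former and rose by 3.22 ± 0.26 in the latter. Plce1, a phospholipase that is also an exchange factor, fell by 1.85 ± 0.24 in the former and rose by 1.11 ± 0.28 in the latter. Another exchange factor, Rasgrf2, rose by 1.57 ± 0.46 in Ctnnb1 tumours. In Ha-ras tumours the GTPase activator Rasa2 rose by 1.83 ± 0.16, and the Ras-association gene Rassf5 fell by 1.22 ± 0.21. Of 18 other cascade kinases and scaffolds, 1 rose and 1 fell in Ctnnb1 tumours and 5 rose and 1 fell in Ha-ras tumours, where Pebp1, an inhibitor of RAF, fell by 1.02 ± 0.18. Of 23 receptor regulators and adaptors, 2 fell in Ctnnb1 tumours, with Errfi1, a feedback inhibitor of EGFR, at -0.98 ± 0.31, and 1 rose in Ha-ras tumours.

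ERK feedback and target genes can rise when the cascade is active. Of 20 such genes, 2 rose and 1 fell in Ctnnb1 tumours with a median of 0.01. In Ha-ras tumours 12 rose and none fell, with a median of 1.21. The genes that rose in Ctnnb1 tumours were Myc (1.64 ± 0.35, limma adjusted p = 0.00679) and Egr1. Egr1, an immediate early transcription factor, was 12.32, 12.56 and 12.30 in Ha-ras tumours and 8.09, 8.82 and 8.63 in untreated controls. In Ctnnb1 tumours Egr1 was 8.73 to 9.58 against 8.77, 7.64 and 8.25 in phenobarbital controls, and rose by 0.72 ± 0.22 (limma adjusted p = 0.042). Spry2, a feedback inhibitor, was 7.77, 7.42 and 7.84 in Ha-ras tumours against 5.20, 4.90 and 5.59 in untreated controls, and 4.38 to 4.90 in Ctnnb1 tumours against 4.91, 4.93 and 6.08 in phenobarbital controls. Dusp6, an ERK phosphatase, was 11.92, 11.41 and 11.37 in Ha-ras tumours against 8.98, 8.91 and 9.11, and 10.35 to 11.38 in Ctnnb1 tumours against 10.44, 10.37 and 11.69 in phenobarbital controls. Dusp6 was higher in the phenobarbital controls, 1.83 ± 0.32 above the untreated controls (limma adjusted p = 0.0315).

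Cell division genes and some markers of other cells moved with the tumours. Cell division genes rose for 8 of 9 measured in both comparisons, from a mean level of 5.20 to 5.61 to one of 6.42 to 7.90 in Ctnnb1 tumours, and from 4.61 to 5.47 to 6.01 to 7.99 in Ha-ras tumours. Stellate cell and fibroblast markers fell for 5 of 10 in Ctnnb1 tumours (mean level 7.14 to 8.06 against 8.03 to 8.51) and for 4 of 10 in Ha-ras tumours (7.32 to 8.10 against 8.22 to 8.33). Of the same list, the collagen genes Col1a1, Col1a2 and Col3a1 had higher means in both tumour groups than in their controls, and did not pass. Macrophage markers fell for 2 of 10 and 4 of 10 (8.12 to 8.82 against 8.79 to 9.41, and 6.92 to 8.84 against 8.53 to 9.31). Of this list, Cd68 (8.88 against 8.05) and C1qa (10.19 against 10.03) had higher means in Ctnnb1 tumours than in phenobarbital controls, and did not pass. Of 10 endothelial markers, 1 rose and 2 fell in Ctnnb1 tumours (6.91 to 7.79 against 7.48 to 7.99) and 1 rose in Ha-ras tumours (7.56 to 8.18 against 7.66 to 7.83). Of 5 cholangiocyte markers, 1 fell in Ctnnb1 tumours (4.55 to 4.96 against 4.85 to 5.31) and 1 rose in Ha-ras tumours (5.12 to 5.56 against 4.85 to 5.05). No lymphocyte or neutrophil marker passed. The highest neutrophil marker mean of a Ctnnb1 tumour was 7.43, against a median of 5.61 in that group and at most 5.88 in the other groups. Markers also differed between the 2 kinds of tumour, and these were named after their values were seen. The macrophage genes Cd68 (1.85) and C1qa (1.11), 2 of 10, were higher in Ctnnb1 than in Ha-ras tumours. The cholangiocyte genes Cldn7 (-2.31) and Sox9 (-0.75), 2 of 5, and the hepatocyte gene Fgb (-0.70), 1 of 7, were lower. Their part in the members' results was not tested.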

How the data were processed

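RNA of 16 liver samples was hybridised to Affymetrix mouse arrays, and 45101 probe sets were read per array. The authors deposited log2 values, and the submitters' processing notes name RMA and R 2.14.1; other settings are not given in the sources used here. Probe sets were named through the platform annotation: 34945 had 1 gene symbol, 932 several and 9160 none, beside 64 array controls, and those with 1 symbol were kept, 1 per gene by the highest mean over all arrays. Of the members, 21 had more than 1 probe set and 7 had 1.

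A limma model (limma 3.58.1, R 4.3.3) with 1 coefficient per group was fitted to all 16 arrays and 18193 genes, with empirical Bayes and Benjamini-Hochberg adjustment, and 5 comparisons were made; the comparisons share control samples. Phenobarbital controls serve the Ctnnb1 tumours and untreated controls the Ha-ras tumours. The number of arrays limits the precision. Data were simulated with independent noise, and 100 genes were changed by 1 and another 100 by 2 on the log2 scale. Of those changed by 1, the fit recovered 92 for Ctnnb1 tumours against their controls and 82 for Ha-ras tumours against theirs. It recovered 63 for the difference between the tumour effects, 77 for phenobarbital against untreated controls and 85 for the direct comparison of tumours. Most comparisons here called more genes than the simulation changed, so these counts may not hold for these data.

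The members and lists were chosen with earlier results of these data known. Every member may be named; of each pathway list, up to 4 passing genes with the largest change per comparison, and Dusp6, Spry2 and Egr1 as ERK target levels. Alternatives covered probe set choice, normalization, thresholds, replicate blocks and leaving out arrays.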

Additional observations from a re-analysis of the deposited data

Results flagged for a closer look

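In 6 of 28 members, 1 of the 7 Ctnnb1 tumours lay far from the other 6 by Dixon's test, where chance gives about 1 in 20. The share of all genes flagged this way was not computed, and the members share the same arrays. The count therefore does not set the members apart from other genes. Tumour 7 had the lowest array weight of the 7, 0.50. Tumour 7 was low in Tgfa (8.90, others 9.34 to 9.61), Met (9.02, others 9.81 to 10.07) and Ptpn11 (9.37, others 9.68 to 9.84). Tumour 3 was high in Hbegf (8.23, others 7.04 to 7.51), tumour 1 was high in Erbb4 (2.89, others 2.49 to 2.66) and tumour 6 was low in Map2k1 (9.40, others 9.75 to 9.98). The change from control differed between the 2 kinds of tumour, by the limma interaction term, for Rps6ka3 (-1.88) and Shc1 (-0.58).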

How the results depend on the processing

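Other settings left the count of members that passed within 1.5 times of 7 and 7 in the 2 tumour comparisons, except that 4 passed in Ctnnb1 tumours at an adjusted p of 0.01. The difference between the tumour effects fell from 2 to 1 member, Rps6ka3 alone, with the mean of all probe sets, the highest-variance probe set, median centring, a trended robust fit or a threshold of 0.01. The direct comparison of tumours fell from 5 to 2 with the mean of all probe sets, the highest-variance probe set or a threshold of 0.01, and was 10 without phenobarbital control 6 and Ctnnb1 tumours 6 and 7. Leaving out 1 array at a time gave 5 to 9 members in Ctnnb1 tumours, 5 to 7 in Ha-ras tumours, 1 to 3 for the difference, 0 in every run for phenobarbital against untreated controls and 2 to 5 for the direct comparison. With the replicate number as a fixed block the counts were 6, 7 and 2, and as a random block 8, 9, 2, 0 and 5. The fixed block could not be fitted for the last 2 comparisons. The deviations of same-numbered samples correlated at 0.13, 0.09 and -0.12 under phenobarbital and at 0.03, 0.40 and 0.24 without it. Those of differently numbered samples correlated from -0.18 to 0.15 under phenobarbital and from -0.32 to 0.07 without it. With so few pairs, these values cannot decide whether same-numbered samples were paired. Under the fixed block the calls were in part exchanged: Rasal2 in Ctnnb1 tumours (-0.57, limma adjusted p = 0.238), Rras in Ha-ras tumours (0.71, 0.0704) and the Shc1 difference (-0.59, 0.117) no longer passed, while Hbegf passed in Ha-ras tumours (0.61, 0.0375) and for the difference (-1.02, 0.0447). Some differences had the opposite sign on a dimmer probe set: Sos1 in Ctnnb1 tumours (0.34 and 0.42) and in Ha-ras tumours (0.016 and 0.25), Egfr (0.057 and 0.013), Tgfa (-0.072) and Rps6ka3 (-0.091) in Ha-ras tumours, and in the direct comparison Araf (-0.078) and Rps6ka3 (0.19). The cause was not tested.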
